A study of Drosophila melanogaster with 18 samples.

Results

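The cuticle protein genes are the genes for the structural proteins of the insect exoskeleton. They were taken by symbol (Lcp, Edg, Cpr, Ccp84, Acp65, Pcp and Twdl) where the 18 libraries together held at least 10 counts. Of 17373 genes in the count table, 125 symbols matched and 73 reached the minimum, namely 13 larval cuticle protein (Lcp) genes, 45 Edg and Cpr genes and 15 others (12 Twdl, 2 Ccp84 and Pcp). A further 28 matching symbols held 1 to 9 counts and 24 held none, Acp65Aa among them. Lcp65Ac with 10 counts and Cpr49Ae with 12 lay just inside the minimum, and Cpr23B and Cpr64Ab with 9 each lay just outside it. The annotation lists 2 of the members, Lcp1Psi and TwdlU, as pseudogenes.

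RNA was read from wing imaginal discs, which are sacs of larval epithelium that give rise to the adult wing and dorsal thorax, dissected by hand from wandering larvae of the third instar kept at 25 °C. All discs carried clones made with ubxflp, a FLP recombinase transgene named for Ubx, on FRT82B in a Minute background, in which cells outside the clones grow slowly. The first group held discs with wts149 clones taken on day 9, the second discs with wts149 clones taken on day 5, and the third control discs, with FRT82B clones that did not carry wts149, labelled day 5 and described in another label as d5.d6. The gene wts encodes Warts, a kinase of the Hippo pathway, which keeps the growth-promoting coactivator Yorkie in check. No control discs of day 9 were analysed here, so between wts day 9 and control discs genotype and age cannot be told apart. Between the wts ages, a change with age alone cannot be told apart from one particular to wts discs. Genes timed by the steroid ecdysone differed between wts day 5 and control discs too. Of 23, 8 were called lower (background 8.88% of all genes tested) and 2 higher (9.64%) in wts day 5. Genotype and developmental stage cannot be told apart there. The sources used here give neither the lesion of wts149 nor how much of a disc was clone.

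Insect cuticle is laid down by the epidermis as chitin fibres in a matrix of cuticle proteins, and a new one is made at each moult under the steroid ecdysone. Most Cpr and Lcp proteins carry the Rebers and Riddiford domain, which binds chitin, while Tweedle (Twdl) proteins form a separate family. Lcp genes are known from the cuticle of the larval body wall, Edg genes were isolated as ecdysone-dependent genes of imaginal discs, and Cpr symbols record a chromosome band and not a stage. Wing discs make pupal and then adult cuticle after the larva has formed a puparium.

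Each group had 3 replicates of 2 libraries, lettered a and b, which were summed. The labels do not say what the letters are or whether replicates were separate dissections, so p-values reflect spread among these samples, which may be technical. Summed replicates held 14201662 to 22263073 counts, and levels are CPM, counts relative to library size, scaled with TMM factors of 0.972 to 1.04. The RNA of wts was 272, 258 and 280.0 CPM in wts day 9 discs, 212, 208 and 186 CPM in wts day 5 discs and 99.8, 105 and 94.4 CPM in control discs, which does not check the genotype, since the lesion is unknown. Genes listed for wing disc epithelium (8, with vg, nub, ap and Ubx among them) summed to 1752 to 1845 CPM in wts day 9, 1740 to 1791 CPM in wts day 5 and 1987 to 2027 CPM in control discs. Of the 8, 3 (vg, ptc and Ubx) were called lower than in control discs in wts day 5 (background 8.88% of all genes tested) and in wts day 9 (14.3%). In wts day 9, 1 (nub) was called higher than in control discs (15.3%) and 1 (vg) lower than in wts day 5 discs (2.9%). Ubx ran from 18.3 to 70.8 CPM in control discs, 7.09 to 17.9 in wts day 5 and 8.82 to 19.1 in wts day 9. Whether the RNA of Ubx came from wing disc epithelium was not tested. In bulk RNA, fewer cells of a type and less RNA per cell cannot be told apart.

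A pair of replicates stood apart from their groups for cuticle protein genes, namely wts day 5 replicate 2 and control replicate 2. In control replicate 2, 42 of the 73 members were highest among control replicates (57.5%), against 33.9% of all genes tested. Of the 13 Lcp members, 12 were highest there (92.3%), though 6 of the 13 stayed under 1 CPM in every group. In wts day 5 replicate 2, 37 of the 69 members with a count in that group were highest (53.6%), against 33.3% of all genes tested. Of the 13 Lcp members, 7 were highest in wts day 5 replicate 2 and 6 in replicate 3. Muscle genes (13 listed) were also highest there, at 338 CPM in sum in wts day 5 replicate 2 against 252 and 204 CPM in replicates 1 and 3, and at 1231 CPM in control replicate 2 against 455 and 366 CPM. Across groups the muscle sum ran from 138 to 189 CPM in wts day 9, 204 to 338 CPM in wts day 5 and 366 to 1231 CPM in control discs. Of the 13 muscle genes, 12 were called lower in wts day 9 (background 14.3% of all genes tested) and 8 in wts day 5 (background 8.88%) than in control discs, and none was at 0 in a replicate. Salivary gland glue genes (9 listed) summed to 0.192 to 1.81 CPM in wts day 9, 0.518 to 0.572 CPM in wts day 5 and 3.19, 252 and 5286 CPM in control discs, and among them ng1, ng2 and ng3 were at 0 in most replicates. Of the 9, 2 were tested, and both were called lower than in control discs in wts day 9 (14.3%) and in wts day 5 (8.88%). Fat body genes (7 listed) summed to 14.8, 299 and 39.1 CPM in wts day 9, 7.93, 6.95 and 32.01 CPM in wts day 5 and 14.8, 145 and 185 CPM in control discs. Of the 7, 2 were called lower in wts day 5 (8.88%) and 1 in wts day 9 (14.3%) than in control discs. Haemocyte genes (9 listed) summed to 122.9 to 213 CPM in wts day 9, 71.8 to 90.9 CPM in wts day 5 and 67.8, 137 and 209 CPM in control discs. Of the 9, 5 were called higher in wts day 9 than in wts day 5 discs (background 5.44%). Against control discs 1 (Hml) was called higher in wts day 9 (15.3%) and 1 (Pxn) lower in wts day 5 (8.88%). Myoblast genes (8 listed) summed to 423 to 476 CPM in wts day 9, 316 to 351 CPM in wts day 5 and 472 to 486 CPM in control discs. Of the 8, 4 were called lower in wts day 5 than in control discs (8.88%) and 3 higher in wts day 9 than in wts day 5 discs (5.44%). In wts day 9 against control discs 1 myoblast gene (Mef2) was called higher (15.3%) and 1 (kirre) lower (14.3%). No haemocyte or myoblast gene was at 0 in a replicate. The part of these cell types in the results was not tested.

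The 3 classes of cuticle protein genes differed in level and in how they varied. The 13 Lcp members summed to 16.3, 13.5 and 10.2 CPM in wts day 9 discs, 5.65, 276 and 10.5 CPM in wts day 5 discs and 55.2, 396 and 122 CPM in control discs. All wts replicates except wts day 5 replicate 2 lay below all control replicates. The 45 Edg and Cpr members summed to 819, 522 and 619 CPM in wts day 9 discs, 332, 428 and 302 CPM in wts day 5 discs and 467, 316 and 498 CPM in control discs. Here every wts day 9 replicate lay above every other replicate, and wts day 5 overlapped control discs. The 15 Twdl, Ccp84 and Pcp members summed to 10.3, 11.2 and 10.3 CPM in wts day 9, 6.22, 9.20 and 5.09 CPM in wts day 5 and 18.0, 15.4 and 12.8 CPM in control discs, with no overlap between the 3 groups. No test was made on these sums.

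**Figure D1:**
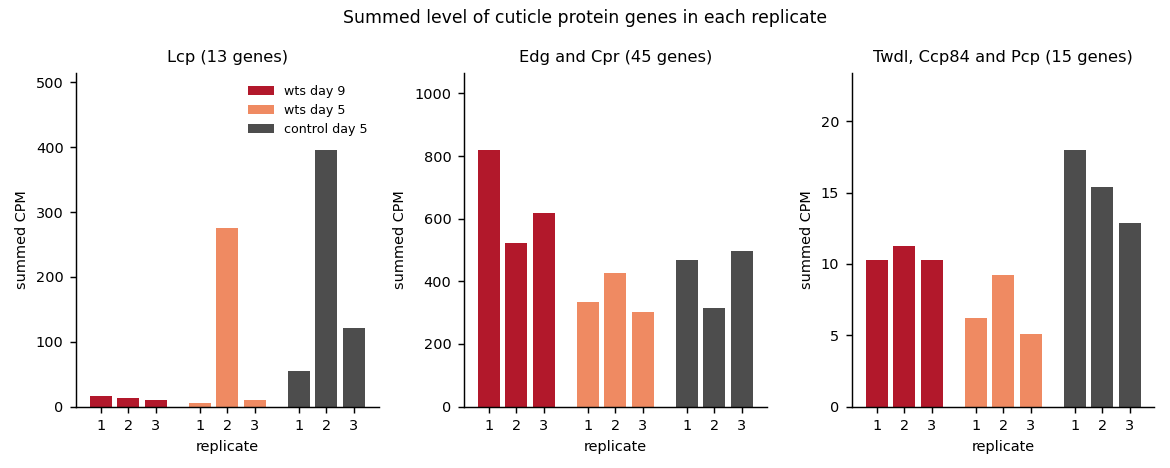
Summed level of the Lcp, the Edg and Cpr, and the Twdl, Ccp84 and Pcp members in each replicate (bars, CPM on a linear axis from 0, 1 panel per class, groups by colour). The Lcp sum of wts day 5 replicate 2, at 276 CPM, stands far above the other replicates of its group, and the Edg and Cpr sums of wts day 9 discs lie at 522 to 819 CPM.

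A few genes made up most of each class. Cpr49Ac, Cpr64Aa, Cpr49Ah, Cpr12A and Cpr51A held 79.0% of the Edg and Cpr sum over the 3 group means, and Lcp4, Lcp1, Lcp3, Lcp2 and Lcp9 held 93.8% of the Lcp sum. A mean of 10 CPM in some group was reached by 15 members, and 33 stayed under 1 CPM in every group. Per kilobase of exon, Cpr51A was the highest member in wts day 9 discs, at 120 ± 18.3 CPM per kb (SD, n = 3), with Cpr49Ac at 116 ± 53.0 next, a gap within their spread. In wts day 5 discs Cpr49Ah was highest at 90.3 ± 10.3 CPM per kb and Cpr51A second at 67.8 ± 11.2. In control discs the mean of Lcp4 was highest at 84.0 ± 80.4 CPM per kb, and Cpr49Ac followed at 71.8 ± 54.6 and Cpr64Aa at 62.0 ± 1.46. The order of these genes lay within their spread. Cpr51A ranked 10th of 73 in control discs at 30.5 ± 5.97.

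Of the 73 members, 46 passed the filter on low counts and were tested by edgeR's quasi-likelihood test, with Benjamini-Hochberg adjustment over all 8585 genes tested. A member was called where its adjusted p was under 0.05. The 27 that did not pass stayed at or under 3.07 CPM in every replicate. A fit of every gene with a count called 4 of them lower in wts day 9 than in control discs, Cpr49Af (adjusted p = 0.0250), Cpr65Aw (0.0440), TwdlF (0.0397) and TwdlM (0.0159). It called Cpr49Af lower in wts day 5 too (0.0403). All 4 were named after their values were seen. The share of all genes called in that fit was not taken, so the count of 4 has no background. Control replicate 2 held the most counts, with 60 for Cpr49Af, 69 for Cpr65Aw, 18 for TwdlF and 19 for TwdlM. The other control replicates held 1 to 10 counts of these genes. A member that passed only through a group in which it was high had to differ, so the counts that follow describe the members and are no support for a shared direction. The comparisons share samples: both wts groups were set against the same control replicates, and the comparison of ages used the wts day 5 replicates again.

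In wts day 5 against control discs, the members called lower outnumbered those called higher when all replicates were used. Lcp65Ag2, Cpr49Ah, Cpr51A and Cpr72Ea were higher, 4 of 46 members against a background of 9.64% of all genes tested. Lcp2, Lcp3, Cpr31A, Cpr49Ag, Cpr60D, Cpr67Fa2, Cpr78E, TwdlBeta and TwdlT were lower, 9 of 46 against a background of 8.88% (18.5% in either direction). Replicates of the groups did not overlap for 4 members higher (background 19.3%) and 11 lower (17.8%). The median log2 fold change was -0.35 over the tested members and -0.00 over all genes. Leaving out wts day 5 replicate 1 left 4 members lower and 3 higher. Leaving out wts day 5 replicate 3 left 2 lower and 4 higher, so the order of the counts turned round.

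In wts day 9 against control discs, 12 members were higher (background 15.3%) and 11 lower (background 14.3%, and 29.6% in either direction). By class, 1 of 8 tested Lcp members was higher and 3 lower, 10 of 32 Edg and Cpr members were higher and 5 lower, and 1 of 6 others was higher and 3 lower. Higher were Lcp65Ag2, Cpr12A, Cpr49Ah, Cpr51A, Cpr64Ac, Cpr65Ec, Cpr66D, Cpr72Ea, Cpr76Bc, Cpr100A, Edg78E and TwdlE. Lower were Lcp2, Lcp3, Lcp4, Cpr49Ag, Cpr60D, Cpr67Fa2, Cpr97Eb, Edg91, Ccp84Ag, TwdlBeta and TwdlV. Replicates did not overlap for 15 members higher (background 22.1%) and 15 lower (22.4%). The median log2 fold change was 0.09 over the tested members and -0.01 over all genes. With limma-voom 6 members were called lower.

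In wts day 9 against wts day 5 discs, Cpr12A, Cpr31A, Cpr51A, Cpr64Ac, Cpr65Ec, Cpr66D, Cpr78E, Cpr100A, TwdlE and TwdlT were higher, 10 of 46 against a background of 5.44% (8.34% in either direction). None was called lower by edgeR (background 2.9%), with 7 at an unadjusted p under 0.05, 3 by DESeq2 (Lcp1, Lcp4 and TwdlV) and 0 by limma-voom. Replicates did not overlap for 15 members higher (background 18.2%) and 3 lower (17.3%). The median log2 fold change was 0.44 over the tested members and -0.01 over all genes. Dropping wts day 5 replicate 2 left 6 higher members, dropping wts day 5 replicate 3 left 4, and dropping wts day 9 replicate 2 or 3 left 5. Of the 46 tested members, Cpr51A alone was called in each of the 3 comparisons.

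**Figure D2:**
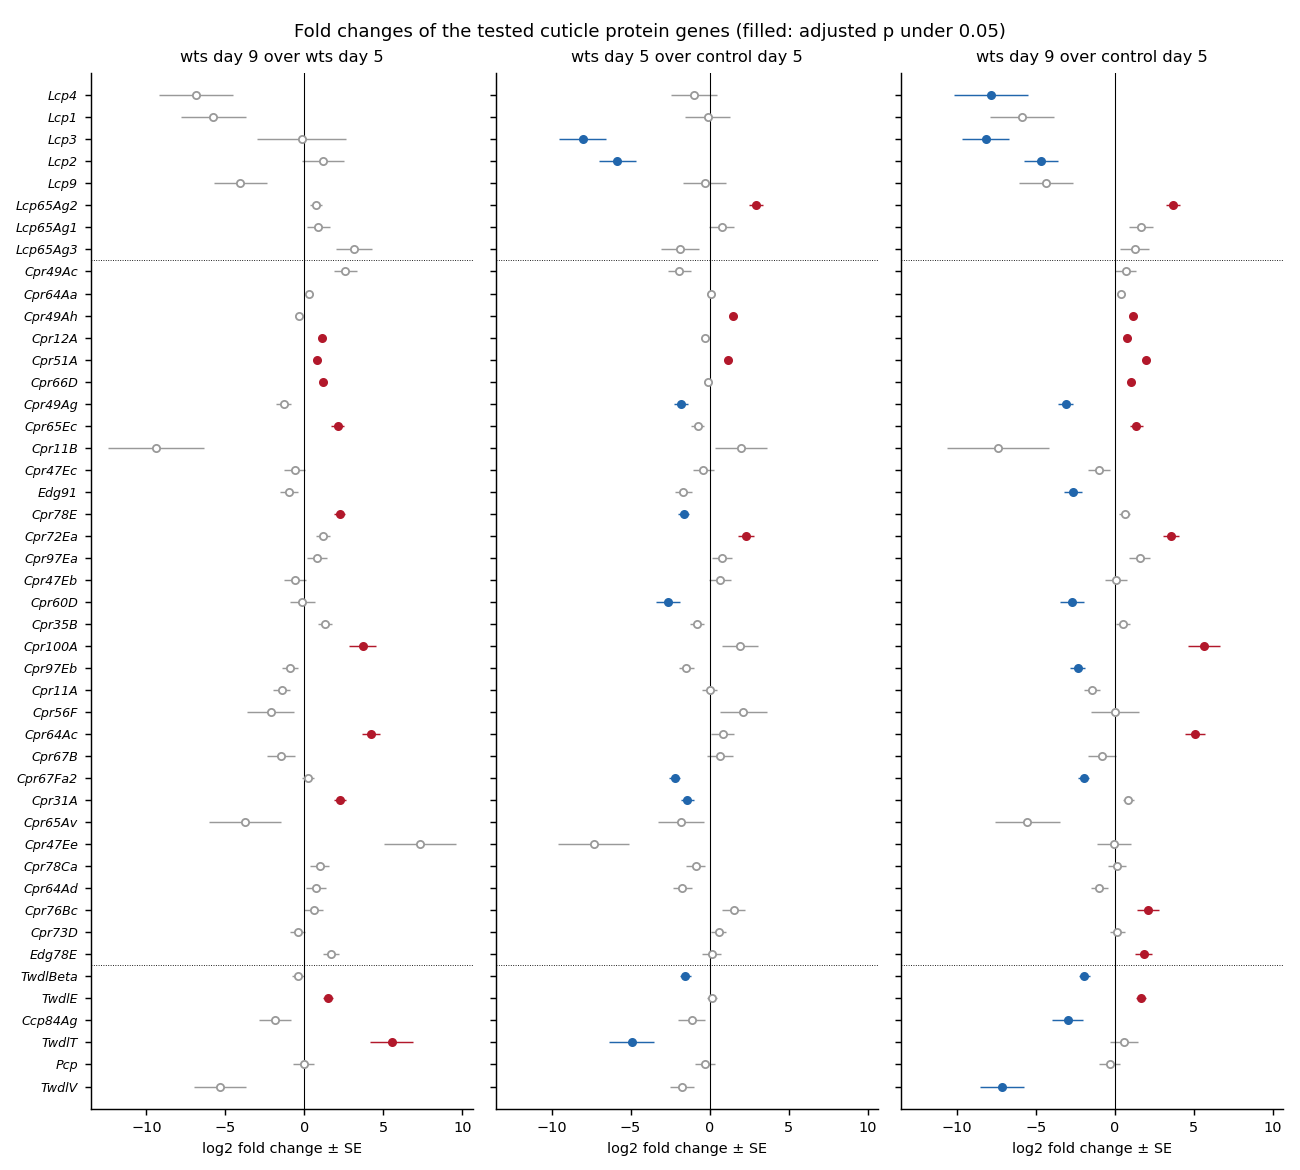
Log2 fold changes with approximate standard errors, taken from the F statistic of the test, for the 46 tested members in the 3 comparisons (panels on 1 shared axis). Lcp members are at the top, Edg and Cpr in the middle, Twdl, Ccp84 and Pcp at the bottom. Filled points have an adjusted p under 0.05, red higher and blue lower, and fitted values of genes at 0 counts in a group, such as TwdlV and Cpr47Ee, depend on the prior count.

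The larval genes Lcp1 to Lcp4 stand side by side on 2R (8430115 to 8438495, coordinates of the BDGP6 annotation from Ensembl), with the pseudogene Lcp1Psi between them. Lcp3 (FBgn0002534) had 0, 0.207 and 0.144 CPM in wts day 9 discs, 0.0518, 0.140 and 0.208 CPM in wts day 5 discs and 16.7, 89.2 and 2.19 CPM in control discs. Lcp2 (FBgn0002533) had 1.65, 0.362 and 0.911 CPM in wts day 9 discs, 0.207, 0.983 and 0.208 CPM in wts day 5 discs and 7.82, 62.5 and 4.11 CPM in control discs. Both genes were lower in every wts replicate than in any control replicate, while control replicates differed among themselves by 40.8 times for Lcp3 and 15.2 times for Lcp2. Lcp3 fell by 8.17 ± 1.48 on the log2 scale in wts day 9 (SE, adjusted p = 0.00336) and in wts day 5 discs its log2 fold change was -8.02 ± 1.48 (adjusted p = 0.00585). In summed counts Lcp3 had 7 in wts day 9, 7 in wts day 5 and 2406 in control discs, and control over wts day 9 was a ratio of 324 (95% interval 157 to 806, counting error only) and control over wts day 5 one of 289.8 (140.4 to 722). Lcp2 fell by 4.67 ± 1.06 in wts day 9 (adjusted p = 0.00962) and in wts day 5 discs its log2 fold change was -5.83 ± 1.19 (adjusted p = 0.00935). With limma-voom neither gene was called, at adjusted p = 0.312 and 0.344 for Lcp3 and 0.165 and 0.202 for Lcp2 (day 9 first), and without wts day 5 replicate 3 Lcp2 missed the threshold on day 5 (0.0578). With control replicate 2 left out the log2 fold change was -6.25 in wts day 9 and -6.09 in wts day 5 for Lcp3, and -2.62 in wts day 9 and -3.74 in wts day 5 for Lcp2. Lcp3 was at -8.77 on day 9 when replicate 2 of that group was dropped, and Lcp2 at -6.85 on day 5 when replicate 2 of that group was.

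Lcp4 and Lcp1 followed Lcp3 and Lcp2 in wts day 9 discs and departed from them in 1 wts day 5 replicate. Lcp4 (FBgn0002535) had 0.213, 0.104 and 0.527 CPM in wts day 9, 0.259, 104 and 0.104 CPM in wts day 5 and 13.7, 137 and 48.7 CPM in control discs. Lcp1 (FBgn0002531) had 1.33, 0.362 and 0.815 CPM in wts day 9, 0.311, 137 and 0.208 CPM in wts day 5 and 11.99, 80.1 and 56.3 CPM in control discs. In wts day 5 replicate 2 Lcp4 lay within the control range and Lcp1 above it, while Lcp3 and Lcp2 in the same replicate stayed at 0.140 and 0.983 CPM. Both of its libraries showed it, with Lcp1 at 137.2 CPM in library a and 137.5 CPM in library b. Lcp4 fell by 7.82 ± 2.35 in wts day 9 against control discs (adjusted p = 0.0319), a call lost without control replicate 2 or any 1 of the wts day 9 replicates (adjusted p = 0.0667 to 0.110) and with limma-voom (0.214). It was -6.73 without control replicate 2 and -8.65 without wts day 9 replicate 3. Lcp1 in the same comparison had a log2 fold change of -5.88 ± 2.04 (adjusted p = 0.0544). Some alternatives called Lcp1 lower there, such as DESeq2 (0.00661), edgeR on those groups alone (0.00357) and edgeR without wts day 5 replicate 2 (0.00105). Others, limma-voom among them, did not. For wts day 5 against control discs Lcp4 had -0.96 ± 1.46 (adjusted p = 0.673) and Lcp1 -0.13 ± 1.45 (adjusted p = 0.961). Without wts day 5 replicate 2 these became -8.46 for Lcp4 (adjusted p = 0.00565) and -7.53 for Lcp1 (adjusted p = 0.00362).

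Lcp9 (FBgn0025578), a larval cuticle gene elsewhere on 2R (24779979 to 24780428), had 0.960, 0.621 and 0.192 CPM in wts day 9, 0.155, 29.4 and 0.208 CPM in wts day 5 and 2.95, 23.1 and 10.1 CPM in control discs. It was again high in wts day 5 replicate 2 alone of the wts replicates. Its log2 fold change was -4.36 ± 1.70 in wts day 9 (adjusted p = 0.0792) and -0.31 ± 1.36 in wts day 5 against control discs (adjusted p = 0.891), and on day 5 it was -6.00 without replicate 2 of wts day 5 (adjusted p = 0.0103). On day 9 DESeq2 (0.0346) and edgeR on those groups alone (0.0111) called Lcp9 lower, while most alternatives, limma-voom among them, did not.

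The Lcp65A genes, a second larval group on 3L, did not share this pattern. Lcp65Ag2 (FBgn0020637, 6132990 to 6133593) had 10.6, 8.64 and 5.85 CPM in wts day 9, 3.83, 3.51 and 7.85 CPM in wts day 5 and 0.656, 0.933 and 0.320 CPM in control discs. Every wts replicate lay above every control replicate, and the wts ages overlapped. It rose by 3.68 ± 0.45 on the log2 scale in wts day 9 (adjusted p = 0.000437) and by 2.97 ± 0.45 in wts day 5 against control discs (adjusted p = 0.00237), calls kept in all 20 alternatives tried. Its neighbours Lcp65Ag1 and Lcp65Ag3 averaged 1.15 and 0.712 CPM in wts day 9, 0.608 and 0.0754 CPM in wts day 5 and 0.346 and 0.285 CPM in control discs, and neither was called. The Lcp65Ag genes are near copies, so the split of reads among them is uncertain, and Lcp65Ag3 lies wholly within an antisense gene, asRNA:CR46005. The other Lcp members (Lcp65Ac, Lcp65Ad, Lcp65Ae, Lcp65Af and Lcp1Psi) stayed at or under 0.489 CPM in every replicate and were not tested.

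**Figure D3:**
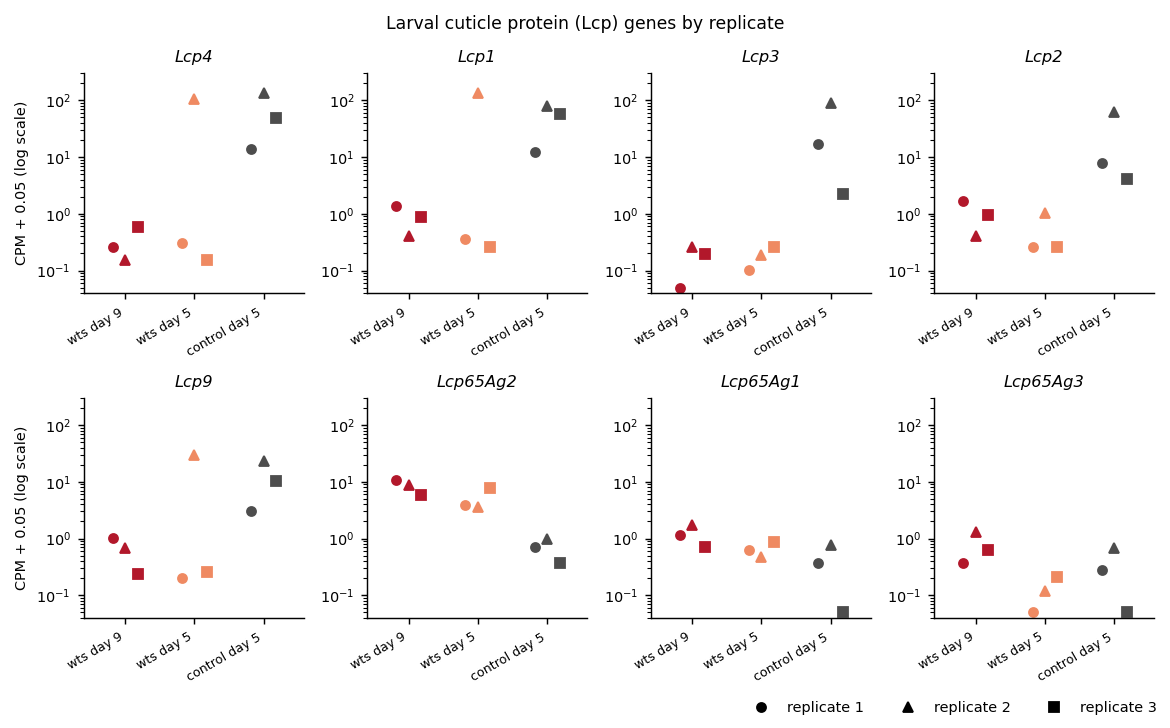
Level of the 8 tested Lcp members in each replicate (CPM + 0.05 on a log axis, symbols for replicates 1 to 3, groups along the axis and by colour). Lcp1, Lcp4 and Lcp9 of wts day 5 replicate 2 sit at 29.4 to 137 CPM with the control replicates, and Lcp65Ag2 lies above control discs in all wts replicates.

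Among Cpr genes, Cpr51A (FBgn0033942) on 2R (14512559 to 14515211) was ordered by group. It had 79.0, 89.4 and 65.6 CPM in wts day 9, 41.5, 38.5 and 52.4 CPM in wts day 5 and 23.9, 19.4 and 16.2 CPM in control discs, with no overlap between any groups. It rose by 1.97 ± 0.17 in wts day 9 (adjusted p = 6.45e-05) and by 1.15 ± 0.17 in wts day 5 against control discs (adjusted p = 0.00218), and by 0.82 ± 0.17 in wts day 9 against wts day 5 discs (adjusted p = 0.0195). The difference between ages missed the threshold when replicate 1 or 2 of either wts group was dropped (adjusted p = 0.0502 to 0.0741), and when both replicates that stood apart were dropped (0.0633).

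Cpr49Ah on 2R (12413962 to 12415170) was raised at both ages. It had 75.1, 67.3 and 71.1 CPM in wts day 9, 84.8, 101 and 82.2 CPM in wts day 5 and 26.8, 49.5 and 19.4 CPM in control discs. It rose by 1.15 ± 0.27 in wts day 9 (adjusted p = 0.0107) and by 1.48 ± 0.27 in wts day 5 discs (adjusted p = 0.00550). The wts ages did not overlap, day 9 being lower, but the log2 fold change of -0.33 ± 0.26 was not called (adjusted p = 0.457). Cpr72Ea on 3L was raised likewise at a lower level, with 2.83, 5.38 and 7.29 CPM in wts day 9, 3.21, 2.25 and 1.25 CPM in wts day 5 and 0.375, 0.666 and 0.267 CPM in control discs. Its log2 fold change was 3.53 ± 0.51 in wts day 9 (adjusted p = 0.00113) and 2.32 ± 0.51 in wts day 5 (adjusted p = 0.0130), the second lost when either control replicate 1 or wts day 5 replicate 1 was dropped (0.0507 and 0.0535) and with limma-voom (0.0630).

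Cpr12A, Cpr66D and Cpr65Ec were raised in wts day 9 discs against both other groups. Cpr12A on X (13543643 to 13544907) had 74.6, 61.6 and 82.5 CPM in wts day 9, 39.8, 33.8 and 29.0 CPM in wts day 5 and 47.4, 30.8 and 49.7 CPM in control discs. Cpr66D on 3L (8640439 to 8643584) had 24.6, 33.5 and 31.1 CPM in wts day 9, 16.1, 9.41 and 14.2 CPM in wts day 5 and 14.9, 14.4 and 14.2 CPM in control discs. Cpr65Ec on 3L (7093204 to 7093841) had 22.0, 20.5 and 23.7 CPM in wts day 9, 6.58, 4.56 and 4.05 CPM in wts day 5 and 8.06, 3.33 and 14.3 CPM in control discs. For each of the 3 genes all wts day 9 replicates exceeded all others, and wts day 5 overlapped control discs. Against wts day 5 discs the rise was 1.09 ± 0.19 for Cpr12A (adjusted p = 0.0109), 1.16 ± 0.18 for Cpr66D (0.00718) and 2.12 ± 0.42 for Cpr65Ec (0.0181). Against control discs it was 0.78 ± 0.19 (0.0124), 1.03 ± 0.18 (0.00272) and 1.38 ± 0.40 (0.0283) in the same order. Cpr12A lost its call between ages without wts day 5 replicate 3 (0.0619). Cpr65Ec lost it against control discs without control replicate 1 or any 1 wts day 9 replicate (0.0581 to 0.0806) and in a fit of those groups alone (0.0534), and between ages without replicate 2 or 3 of either wts group (0.0513 to 0.0859).

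Cpr100A on 3R and Cpr64Ac on 3L were near 0 outside wts day 9 discs. Cpr100A had 2.67, 6.83 and 5.94 CPM in wts day 9, 0.207, 1.05 and 0 CPM in wts day 5 and 0.0468, 0.0889 and 0.160 CPM in control discs. Cpr64Ac had 3.09, 6.94 and 3.45 CPM in wts day 9, 0.104, 0.421 and 0.208 CPM in wts day 5 and 0.234, 0.0444 and 0.107 CPM in control discs. In summed counts wts day 9 over control was 306 against 6 for Cpr100A, a ratio of 54.2 (95% interval 24.6 to 149), and 264 against 8 for Cpr64Ac, a ratio of 35.1 (17.5 to 82.1). Against control discs the adjusted p was 0.00284 for Cpr100A and 0.000433 for Cpr64Ac. Against wts day 5 discs Cpr100A rose by 3.71 ± 0.85 (adjusted p = 0.0294) and Cpr64Ac by 4.23 ± 0.59 (adjusted p = 0.00474). Without control replicate 1 the log2 fold change of Cpr64Ac against control discs was 5.82. That of Cpr100A between ages was 5.56 when replicate 2 of wts day 5 was dropped and 3.07 when its replicate 3 was. The call of Cpr100A between ages was lost when replicate 3 of either wts group, wts day 5 replicate 1 or wts day 9 replicate 2 was dropped (0.0729 to 0.09998) and in the a libraries alone (0.0529).

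Edg78E and Cpr76Bc were called higher in wts day 9 against control discs, at low levels. Edg78E (FBgn0000551) on 3L had 0.587, 1.04 and 0.623 CPM in wts day 9, 0.104, 0.211 and 0.364 CPM in wts day 5 and 0.187, 0.267 and 0.160 CPM in control discs. Cpr76Bc had 0.320, 0.828 and 1.15 CPM in wts day 9, 0.259, 0.492 and 0.779 CPM in wts day 5 and 0.141, 0.311 and 0.0533 CPM in control discs. Edg78E rose by 1.83 ± 0.52 (adjusted p = 0.0250) and Cpr76Bc by 2.11 ± 0.69 (adjusted p = 0.0448). Edg78E lost its call without control replicate 1 or 3 or wts day 9 replicate 2 or 3 (0.0529 to 0.1002) and with DESeq2 (0.0529). Without control replicate 2 the log2 fold change of Cpr76Bc was 2.87. Cpr76Bc kept its call in 6 of 20 alternatives and lost it in every fit that left out 1 replicate except those lacking control replicate 2 or wts day 9 replicate 1 (0.0506 to 0.156).

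The Cpr and Edg members that were lower included Cpr49Ag, a neighbour of Cpr49Ah on 2R (12407793 to 12408523). Cpr49Ag had 6.19, 3.26 and 3.02 CPM in wts day 9, 6.11, 19.7 and 5.25 CPM in wts day 5 and 29.7, 40.4 and 37.7 CPM in control discs. All wts replicates lay below all control replicates, the highest of them being wts day 5 replicate 2. It fell by 3.12 ± 0.49 in wts day 9 (adjusted p = 0.00164) and by 1.82 ± 0.46 in wts day 5 discs (adjusted p = 0.0230), the second lost without wts day 5 replicate 1 or 3 (0.0842 and 0.0899), and on day 5 its log2 fold change was -2.65 without replicate 2 of wts day 5. Edg91 (FBgn0004554) on 3R (17610856 to 17611511) had 3.09, 1.04 and 1.01 CPM in wts day 9, 2.18, 5.97 and 2.18 CPM in wts day 5 and 12.2, 14.2 and 5.70 CPM in control discs. Edg91 fell by 2.65 ± 0.57 in wts day 9 (adjusted p = 0.00734), and in wts day 5, where replicate 2 overlapped the control range, its log2 fold change was -1.66 ± 0.54 (adjusted p = 0.0595). On day 9 it was -3.38 with the first replicate of that group dropped. Without wts day 5 replicate 2 the day 5 value was -2.28 (adjusted p = 0.0304), and Edg91 was also called on day 5 by DESeq2 (0.00902) and limma-voom (0.0402).

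Cpr67Fa2, Cpr60D and Cpr97Eb were lower at levels of a few CPM. Cpr67Fa2 on 3L had 0.373, 0.466 and 0.575 CPM in wts day 9, 0.466, 0.492 and 0.260 CPM in wts day 5 and 1.73, 2.04 and 1.81 CPM in control discs. It fell by 1.96 ± 0.34 in wts day 9 (adjusted p = 0.00273) and by 2.20 ± 0.35 in wts day 5 discs (adjusted p = 0.00320), calls kept in all 20 alternatives, though reads may be shared with its near copy Cpr67Fa1. Cpr60D had 0.640, 0.414 and 0.911 CPM in wts day 9, 0.881, 0.702 and 0.572 CPM in wts day 5 and 1.83, 10.2 and 1.17 CPM in control discs, where replicate 2 stood apart. It fell by 2.73 ± 0.76 in wts day 9 (adjusted p = 0.0229) and by 2.61 ± 0.76 in wts day 5 discs (adjusted p = 0.0406). Without control replicate 2 these log2 fold changes were -1.19 (adjusted p = 0.0740) and -1.06 (adjusted p = 0.134). These calls of Cpr60D were kept in 12 and 8 of 20 alternatives. On day 9 they were lost without control replicate 2 or any 1 wts day 9 replicate (0.0553 to 0.0934) and with limma-voom (0.109), and on day 5 in every fit that left out 1 replicate except those without control replicate 1 or 3 (0.0555 to 0.146) and with limma-voom (0.166). Cpr97Eb on 3R had 0.960, 0.621 and 0.479 CPM in wts day 9, 0.518, 1.62 and 1.71 CPM in wts day 5 and 3.51, 4.75 and 2.29 CPM in control discs. Cpr97Eb fell by 2.35 ± 0.49 in wts day 9 (adjusted p = 0.00612), and in wts day 5 its log2 fold change was -1.46 ± 0.46 (adjusted p = 0.0539), which DESeq2 (0.0203) and limma-voom (0.0424) called.

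Some members were lowest in wts day 5 discs. Cpr78E on 3L (21666452 to 21666980) had 8.11, 7.50 and 7.19 CPM in wts day 9, 1.92, 1.69 and 1.20 CPM in wts day 5 and 5.57, 2.53 and 6.77 CPM in control discs. Cpr31A on 2L had 1.01, 1.55 and 1.92 CPM in wts day 9, 0.311, 0.351 and 0.260 CPM in wts day 5 and 0.656, 0.800 and 1.01 CPM in control discs. All wts day 5 replicates lay below all others for both genes, and for Cpr31A the lowest wts day 9 and the highest control replicate were both at 1.01 CPM. Cpr78E fell by 1.63 ± 0.34 in wts day 5 against control discs (adjusted p = 0.0112) and rose by 2.25 ± 0.35 in wts day 9 against wts day 5 (adjusted p = 0.00708). Cpr31A fell by 1.41 ± 0.40 (adjusted p = 0.0363) and rose by 2.27 ± 0.39 (adjusted p = 0.0105) in the same comparisons. Without wts day 5 replicate 3 the first call of Cpr78E was lost (0.0601), and the rise of Cpr31A was lost without replicate 3 of either wts group (0.0519 and 0.0661). The fall of Cpr31A was kept in 4 of 20 alternatives, and among fits that left out 1 replicate only in that without wts day 9 replicate 1 (0.0550 to 0.134 in the others).

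Cpr49Ac (FBgn0033725) on 2R (12386666 to 12390057), the member with the most counts, varied widely within control discs. It had 361, 137 and 237 CPM in wts day 9, 46.2, 44.6 and 30.3 CPM in wts day 5 and 208, 19.0 and 229 CPM in control discs. Control replicate 2 lay below all wts day 5 replicates, and the other control replicates lay within the wts day 9 range. Its log2 fold change was -1.91 ± 0.71 in wts day 5 against control (adjusted p = 0.0875), 0.69 ± 0.67 in wts day 9 against control (adjusted p = 0.467) and 2.60 ± 0.72 in wts day 9 against wts day 5 discs (adjusted p = 0.0547). Without control replicate 2, Cpr49Ac was lower in wts day 5 discs by -2.44 (adjusted p = 0.00156) and higher in wts day 9 against wts day 5 discs by 2.60 (adjusted p = 0.00191), and DESeq2 with all replicates also called the second (0.0153). Blimp-1, a repressor induced by ecdysone and chosen after its values were seen, was low in the same control replicate, with 61.6, 6.26 and 44.3 CPM in wts day 9, 0.466, 0.492 and 0.104 CPM in wts day 5 and 110.3, 0.578 and 104.9 CPM in control discs. The part of that difference in the values of Cpr49Ac was not tested.

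Cpr64Aa and Cpr11B complete the members whose mean reached 10 CPM in a group, and neither was called. Cpr64Aa on 3L (4207838 to 4209178) had 131, 59.3 and 57.0 CPM in wts day 9, 73.8, 64.8 and 62.2 CPM in wts day 5 and 61.1, 63.7 and 63.7 CPM in control discs, and its log2 fold changes were 0.39 ± 0.27 in wts day 9 and 0.09 ± 0.27 in wts day 5 against control. Cpr11B on X had 0.0533, 0 and 0 CPM in wts day 9, 0.207, 47.1 and 0.0520 CPM in wts day 5 and 0.703, 0.711 and 10.5 CPM in control discs. Its high value came from wts day 5 replicate 2, as it did for Cpr56F (9.90 CPM against 0.104 in both other replicates) and Cpr67B (5.06 against 0.518 and 0.364 CPM), which were chosen after their values were seen. With both replicates that stood apart left out, an alternative chosen after seeing the data, Cpr11B was lower in wts day 9 (log2 fold change -7.88, adjusted p = 0.00613) and in wts day 5 (-5.35, adjusted p = 0.0300) than in control discs.

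**Figure D4:**
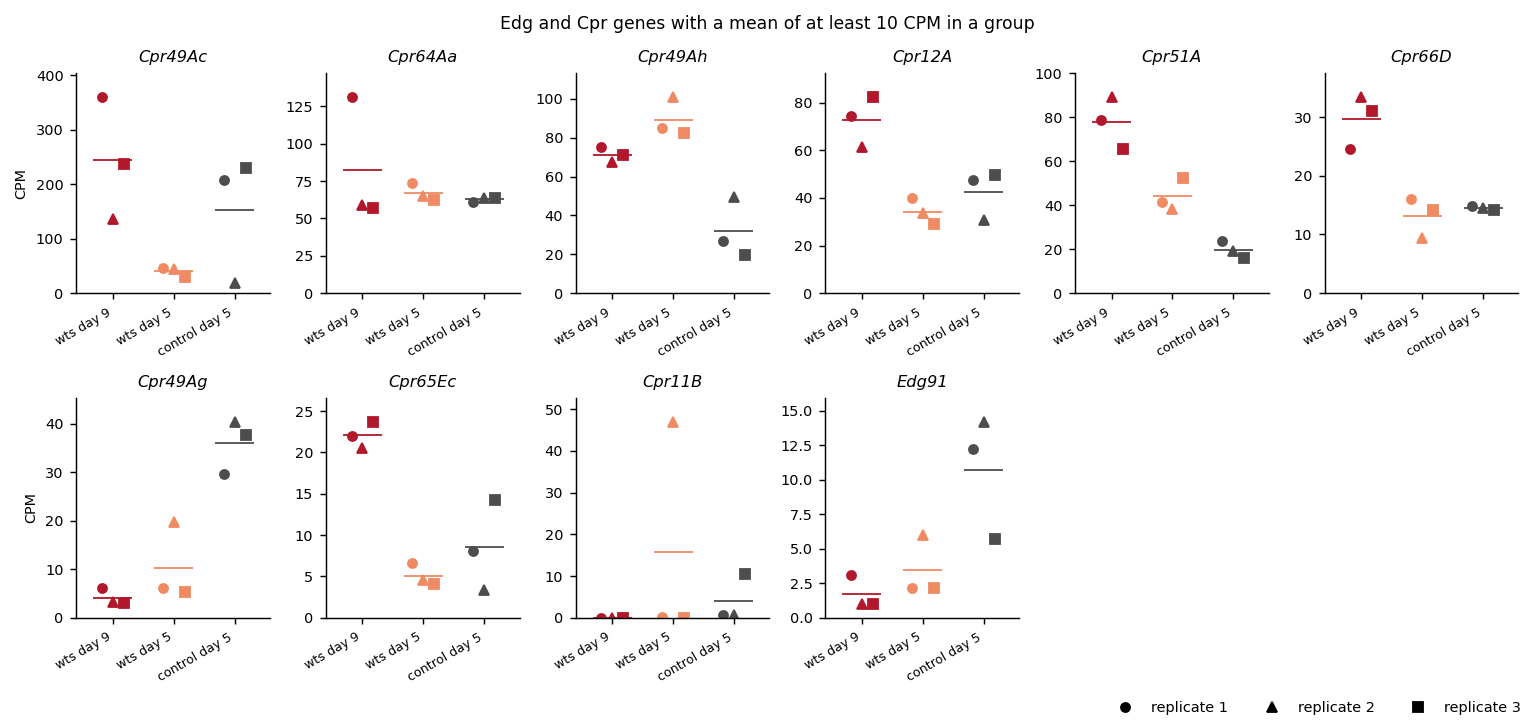
Level in each replicate of the 10 Edg and Cpr members whose mean reached 10 CPM somewhere (CPM on linear axes from 0 that differ between panels, lines at group means, symbols for replicates). Cpr51A steps down over the groups, Cpr49Ac runs from 19.0 to 229 CPM in control discs, and Cpr11B is carried by wts day 5 replicate 2 at 47.1 CPM.

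The Tweedle family and Ccp84 genes were low, with no member above 6.04 CPM in any replicate. TwdlBeta on 2R had 2.08, 0.725 and 1.10 CPM in wts day 9, 1.66, 2.04 and 1.45 CPM in wts day 5 and 6.04, 4.93 and 3.79 CPM in control discs, with all wts replicates below all control replicates. It fell by 1.92 ± 0.37 in wts day 9 (adjusted p = 0.00477) and by 1.52 ± 0.37 in wts day 5 discs (adjusted p = 0.0202), the second lost without control replicate 1 or wts day 5 replicate 1 or 3 (0.0703 to 0.0925), in the b libraries alone (0.0562) and without both replicates that stood apart (0.0557). TwdlE on 2L had 3.63, 5.18 and 4.89 CPM in wts day 9, 2.23, 0.983 and 1.56 CPM in wts day 5 and 1.55, 1.02 and 1.76 CPM in control discs. TwdlE rose by 1.66 ± 0.34 against control (adjusted p = 0.00554) and by 1.51 ± 0.34 against wts day 5 discs (adjusted p = 0.0264), the second lost without replicate 2 or 3 of either wts group (0.0886 to 0.105), in the a libraries alone (0.0636) and without both replicates that stood apart (0.0522). On the opposite strand lectin-28C covers 968 of the 1346 exonic bases of TwdlE, and since it is not stated whether counting used strand, reads of these genes cannot be told apart.

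TwdlT on 3R had 1.39, 2.74 and 1.97 CPM in wts day 9, 0.0518, 0 and 0.0520 CPM in wts day 5 and 1.83, 0 and 2.24 CPM in control discs. Control replicate 2 was at 0, as it was low for Cpr49Ac. Summed counts were 120 in wts day 9, 2 in wts day 5 and 81 in control discs, a ratio of wts day 9 over wts day 5 of 53.7 (95% interval 14.6 to 449) and of control over wts day 5 of 34.1 (9.15 to 287). Both differences were called (adjusted p = 0.0379 and 0.0371) and kept in 11 and 9 of 20 alternatives. Among fits that left out 1 replicate, the rise in wts day 9 was kept without control replicate 2 or 3 and the fall in wts day 5 without control replicate 2 or wts day 9 replicate 1, and the others gave 0.0550 to 0.134 and 0.0534 to 0.123. The fitted log2 fold change in wts day 5, which rests on 2 counts there, was -4.94, and -5.53 without control replicate 2. TwdlV on 3R had 0 CPM in all wts day 9 replicates, 0.570, 0.0702 and 0.104 CPM in wts day 5 and 1.31, 0.444 and 0.906 CPM in control discs. In summed counts it had 0 in wts day 9 discs, against 55 in control discs, a fall of at least 17.3-fold taken with 3 counts in the day 9 group (adjusted p = 0.00767). Ccp84Ag on 3R had 0.427, 0.414 and 0.144 CPM in wts day 9, 0.104, 3.02 and 0.572 CPM in wts day 5 and 4.08, 2.71 and 1.07 CPM in control discs. It fell by 2.99 ± 0.98 in wts day 9 (adjusted p = 0.0442), a call kept in 12 of 20 alternatives and, when 1 replicate was left out, only without control replicate 3 or wts day 5 replicate 1 or 2 (0.0599 to 0.145 in the others), and lost with limma-voom (0.0598) and in the b libraries alone (0.0558). Pcp, the pupal cuticle protein gene, averaged 0.740 ± 0.191, 0.793 ± 0.836 and 0.934 ± 0.394 CPM (SD, n = 3) in wts day 9, wts day 5 and control discs and was not called.

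Of the members, 31 lay on 3L, 19 on 2R, 12 on 3R, 7 on X and 4 on 2L, and 45 of them stood in 13 runs with gaps of at most 10000 bases. Neighbours moved alike in some runs and apart in others. In the run of Lcp1 to Lcp4, all 4 genes lay below every control replicate in wts day 9 discs, with Lcp2, Lcp3 and Lcp4 called. In the run of 4 at Cpr49A (2R, 12402216 to 12415170), Cpr49Ah was higher and Cpr49Ag lower in both wts groups, Cpr49Af had counts in control discs alone (71 in sum, at 0 in both wts groups, below the filter), and Cpr49Ae held 12 counts in all. In the run of 9 at Lcp65A (3L, 6130386 to 6145393), Lcp65Ag2 was the sole member called. At Cpr64A (3L, 4207838 to 4216414), Cpr64Ac was raised in wts day 9 discs, while Cpr64Aa and Cpr64Ad were not called. Cpr97Eb was lower in wts day 9 discs, and its neighbour Cpr97Ea had a log2 fold change of 1.57 ± 0.65 in the same comparison (adjusted p = 0.0958).

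**Figure D5:**
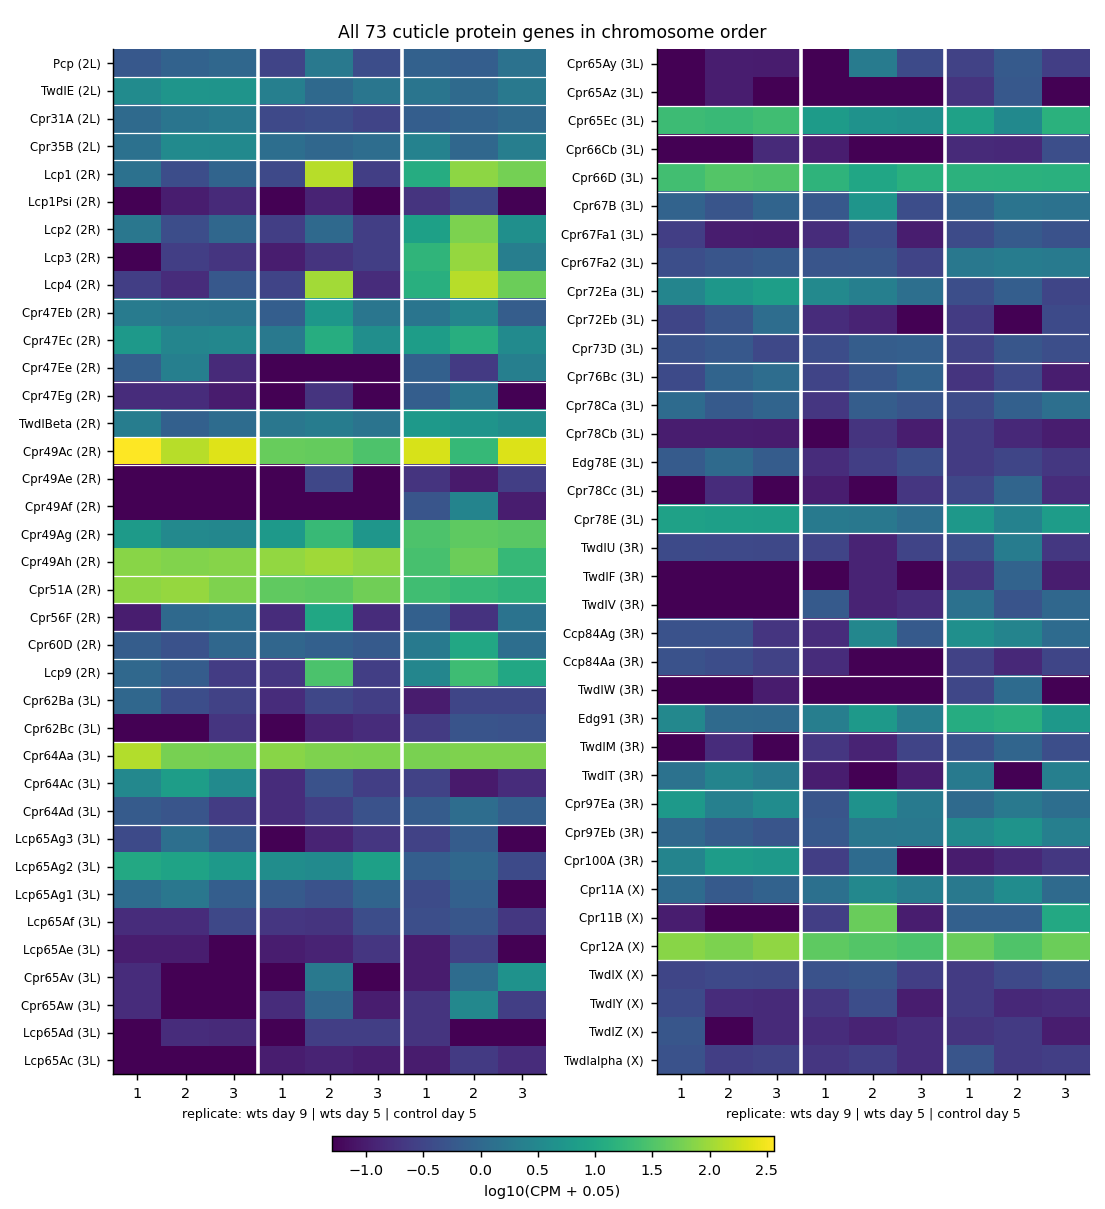
Level of all 73 members in each of the 9 replicates, as log10(CPM + 0.05) by colour, in chromosome order down both columns with thin lines between genes over 10 kb apart. Bright cells at Lcp1 and Lcp4 in wts day 5 replicate 2 and in control discs, and rows of unlike colour within the Cpr49A run, are the patterns described above.

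Genes that work with cuticle proteins were taken from lists. Of 25 genes of chitin synthesis and turnover, 23 were tested. In wts day 9 against control discs 10 were higher (background 15.3%). In wts day 5 against control 6 were higher (9.64%) and 1, Cht5, lower (8.88%), and 2 were higher (5.44%) and 1, CG5210 or Idgf6, lower (2.9%, -0.90 ± 0.22, adjusted p = 0.0383) in wts day 9 against wts day 5. Gfat1, which makes the precursor of the chitin monomer, had 721, 728 and 680.1 CPM in wts day 9, 594, 532 and 608 CPM in wts day 5 and 466, 452 and 484 CPM in control discs. Its log2 fold change was 0.60 ± 0.07 on day 9 (adjusted p = 0.000328) and 0.31 ± 0.07 on day 5 against control (adjusted p = 0.0155), and 0.30 ± 0.07 between the ages (adjusted p = 0.0313). Cht2, a chitinase gene, rose by 0.63 ± 0.09 on day 9 (adjusted p = 0.00134), and exp by 1.01 ± 0.14 on day 5 (adjusted p = 0.00154). Cht6, a chitinase gene, had 493, 397 and 324 CPM in wts day 9, 442, 444 and 385 CPM in wts day 5 and 178, 204 and 198 CPM in control discs, a rise of 1.07 ± 0.14 (adjusted p = 0.000580) on day 9 and 1.13 ± 0.14 (adjusted p = 0.000802) on day 5. Serp, a chitin deacetylase gene, rose by 0.79 ± 0.10 on day 9 (adjusted p = 0.000407) and by 0.62 ± 0.10 on day 5 (adjusted p = 0.00260). Cht5, also a chitinase gene, had 143, 167 and 160 CPM in wts day 9, 49.0, 32.4 and 36.99 CPM in wts day 5 and 80.9, 46.9 and 68.2 CPM in control discs. In wts day 9 Cht5 rose by 1.99 ± 0.20 against wts day 5 (adjusted p = 0.00132) and by 1.26 ± 0.19 against control discs (adjusted p = 0.00152), and in wts day 5 against control discs its log2 fold change was -0.72 ± 0.20 (adjusted p = 0.0317).

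Of 20 other cuticle and apical matrix genes, 16 were tested. Of these, 2 were higher (background 15.3%) and 5 lower (14.3%) in wts day 9 against control, 3 higher (9.64%) and 3 lower (8.88%) in wts day 5 against control, and 3 lower (2.9%) in wts day 9 against wts day 5 discs. The last were CG16885, CG16884 and tyn. The gene tyn fell by 0.92 ± 0.18 (adjusted p = 0.0186). In wts day 5 against control, dy and zye were lower by log2 fold changes of -2.07 ± 0.35 (adjusted p = 0.00387) and -2.46 ± 0.59 (adjusted p = 0.0193). CG16885, listed as Vajk2, had 8.53, 5.02 and 4.94 CPM in wts day 9, 50.4, 124 and 65.4 CPM in wts day 5 and 113, 141 and 119 CPM in control discs. It fell by 4.34 ± 0.35 in wts day 9 against control (adjusted p = 4.02e-05) and by 3.69 ± 0.35 against wts day 5 discs (adjusted p = 0.00105), and CG16884, listed as Vajk3, by 4.79 ± 0.45 and 4.19 ± 0.45 (adjusted p = 0.000104 and 0.00163). Gasp and obst-B, which encode chitin-binding proteins, rose by 0.98 ± 0.16 and 1.34 ± 0.14 in wts day 9 (adjusted p = 0.00175 and 0.000185) and by 0.87 ± 0.16 and 0.84 ± 0.14 in wts day 5 against control discs (adjusted p = 0.00506 and 0.00363). Genes listed as tracheal markers (8, of which serp, verm, pio and Gasp are also in the lists above) summed to 4291 to 4892 CPM in wts day 9, 3562 to 4105 CPM in wts day 5 and 2519 to 3037 CPM in control discs. In wts day 5, 3 (uif, serp and Gasp) were called higher (9.64%) and 2 (btl and dys) lower (8.88%) than in control discs. In wts day 9, 4 (uif, serp, verm and Gasp) were called higher (15.3%) and 1 (btl) lower (14.3%) than in control discs. Between the ages 1 (dys) was called higher in wts day 9 (5.44%), and trh was called in no comparison. The part of trachea in the rises above was not tested.

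Of 10 genes of cuticle tanning, 7 were tested, and 2 were higher (background 15.3%) and 2 lower (14.3%) in wts day 9 against control, and 1 higher (9.64%) and 4 lower (8.88%) in wts day 5 against control. The gene amd had 35.997, 29.7 and 24.7 CPM in wts day 9, 21.4, 23.3 and 22.4 CPM in wts day 5 and 14.4, 14.04 and 7.36 CPM in control discs, with no overlap between the groups. It rose by 1.33 ± 0.23 in wts day 9 (adjusted p = 0.00251) and by 0.90 ± 0.23 in wts day 5 discs (adjusted p = 0.0238). The gene laccase2, for an oxidase that hardens cuticle, rose by 0.52 ± 0.15 in wts day 9 (adjusted p = 0.0254). Ddc, for dopa decarboxylase, was called lower at both ages, with log2 fold changes of -1.94 ± 0.61 (adjusted p = 0.0379) on day 9 and -2.37 ± 0.63 (adjusted p = 0.0289) on day 5. It had 3.63, 2.07 and 2.78 CPM in wts day 9, 2.18, 2.04 and 2.08 CPM in wts day 5 and 9.56, 20.8 and 2.19 CPM in control discs. Control replicate 3 lay within the wts day 9 range and barely above wts day 5 discs. The gene b was lower on day 5 (-1.96 ± 0.53, adjusted p = 0.0297). The gene e, for the ebony enzyme of pigment formation, had 0.107, 0.104 and 0.0479 CPM in wts day 9, 0.155, 0.351 and 0.156 CPM in wts day 5 and 16.0, 0.711 and 1.49 CPM in control discs (adjusted p = 0.00700 and 0.0205 against control). Of 23 ecdysone-timed genes, all tested, 12 were higher in wts day 9 against wts day 5 (background 5.44%), 6 higher (15.3%) and 1 lower (14.3%) in wts day 9 against control, and 2 higher (9.64%) and 8 lower (8.88%) in wts day 5 against control discs. The gene chinmo, whose product is known for the larval state of the disc, had 347, 376 and 288 CPM in wts day 9, 355, 330.2 and 430.5 CPM in wts day 5 and 112, 126 and 76.1 CPM in control discs. It rose by 1.69 ± 0.18 in wts day 9 (adjusted p = 0.000231) and by 1.83 ± 0.18 in wts day 5 (adjusted p = 0.000297). For ftz-f1 the rises were 0.82 ± 0.17 (adjusted p = 0.00637) and 1.02 ± 0.17 (adjusted p = 0.00384). Kr-h1 and Eip93F rose in wts day 9, by 0.44 ± 0.07 and 2.33 ± 0.46 against control discs (adjusted p = 0.00149 and 0.00500) and by 0.43 ± 0.07 and 2.76 ± 0.48 against wts day 5 discs (adjusted p = 0.00770 and 0.0114). Eip93F was low throughout, at 1.55, 2.17 and 1.73 CPM in wts day 9 and 0.156 to 0.533 CPM in the replicates of the other groups. ImpE2, an ecdysone-induced gene of imaginal discs, had 949, 246 and 627 CPM in wts day 9, 73.2, 67.4 and 22.3 CPM in wts day 5 and 2218, 452 and 2696 CPM in control discs. It fell by 5.04 ± 0.79 in wts day 5 against control (adjusted p = 0.00273) and rose by 3.49 ± 0.73 in wts day 9 against wts day 5 discs (adjusted p = 0.0215). ImpE3 had log2 fold changes of -4.28 ± 0.73 (adjusted p = 0.00418) and 3.50 ± 0.72 (adjusted p = 0.0205) in the same comparisons. Control replicate 2 and wts day 9 replicate 2 were the lowest of their groups for ImpE2, Blimp-1 and Cpr49Ac alike.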

How the data were processed

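RNA-seq of 18 wing disc libraries in 3 groups was used. The deposited values are raw read counts per gene, and the submitters' processing notes name HTSeq as the authors' tool. The version, the aligner, the genome build and the use of strand are not stated in what was read here. The cuticle protein genes and every gene list were chosen with earlier results of these data known. Libraries a and b of a replicate were summed (each library held 5611674 to 11193858 counts), since they differed by no more than sampling noise (chi-square per degree of freedom 0.994 to 1.06, against 11.1 to 58.9 between replicates). Genes were filtered with filterByExpr, scaled with TMM and tested in 1 model of all 3 groups with edgeR 4.0.16 (quasi-likelihood test) in R 4.3.3, with Benjamini-Hochberg adjustment over 8585 genes and a threshold of 0.05. The SE of a fold change was not fitted directly. It was taken back from this test, as the size of the log2 fold change over the square root of the F statistic. Such an SE is approximate, least so to be relied on for genes with few counts in a group. The steps were tested on simulated data. A ratio of summed counts is given with a 95% interval where a group held under 10 counts, and 3 counts stand for a group at 0. Intervals cover counting error only. Gene positions and exonic lengths are from the Ensembl BDGP6 annotation, matched by symbol, and the build behind the counts was not compared. Genes named with values are mainly the members called in a comparison, those with a group mean of 10 CPM or more and, in the other lists, called genes among the 4 with the smallest adjusted p in a comparison, with Blimp-1 added after its values were seen. Among members named outside this rule were Pcp, Lcp65Ag1, Lcp65Ag3, Cpr97Ea, Cpr56F, Cpr67B and those called only in the fit of every gene with a count. Alternatives were DESeq2 1.42.0, limma-voom (limma 3.58.1), other size factors and filters, the a or b libraries alone, only the groups compared, replicate number as a block, and each replicate left out. Figures were drawn with matplotlib 3.10.9 in Python 3.11.15.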

Additional observations from a re-analysis of the deposited data

How the results depend on the processing

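No called fold change of a member turned round in any of the 20 alternatives. Leaving out each of the 9 replicates in turn gave, for wts day 9 against control, 9 to 13 members higher and 8 to 15 lower. It gave 3 to 4 higher and 2 to 11 lower for wts day 5 against control, and 4 to 11 higher and 0 to 1 lower (Cpr65Ay) for wts day 9 against wts day 5. In these fits 17 of 23, 5 of 13 and 3 of 10 calls were kept throughout. The other alternatives moved a count beyond 1.5 times for wts day 9 against control with limma-voom (6 lower), and for wts day 9 against wts day 5 with DESeq2 (3 lower) and in a fit of those groups alone (1 lower, Cpr49Ah). The cause was not tested. Without both replicates that stood apart, an alternative chosen after seeing the data, 12 members were higher and 13 lower, 4 higher and 13 lower, and 9 higher and 0 lower in the same order of comparisons. With the replicate number as a block the counts were 11 and 11, 4 and 7, and 9 and 0. Numbers were not taken as pairs, since correlations of same-numbered replicates ran from -0.167 to 0.244 and 4 of 9 replicates correlated best with their own number. Scaling by library size alone turned the split over all genes to 1069 higher and 1580 lower for wts day 9 (1312 and 1231 with TMM) and 644 and 1066 for wts day 5 (828 and 762 with TMM) against control. Depth limits the 27 members that did not pass the filter, of which a fit of every gene with a count called 4 lower in wts day 9 against control and 1, Cpr49Af, lower in wts day 5 (adjusted p = 0.0250 and 0.0403 for Cpr49Af by edgeR). The share of all genes called in that fit was not taken. Fold changes that were not called did turn round for named members, in log2 units. Without both replicates that stood apart, wts day 5 against control was -5.35 for Cpr11B (adjusted p = 0.0300 by edgeR, 1.99 with all replicates), -0.14 for Cpr64Ac and 0.069 for Cpr66D, and wts day 9 against wts day 5 was 1.67 for Lcp1, 0.65 for Lcp4 and 1.66 for Lcp9. Cpr11B on day 5 was -1.19 with limma-voom and -0.34 with the block. In the b libraries alone TwdlE on day 5 was -0.076 and Lcp3 between ages 0.67, and in the a libraries alone Cpr67Fa2 and TwdlBeta between ages were -0.10 and 0.095. With 1 replicate left out, wts day 9 against control ran from -0.10 to 0.62 for Cpr64Aa and from -0.0057 to 1.16 for TwdlT. For wts day 5 against control the ranges were -4.85 to 4.46 for Cpr11B, -0.29 to 0.073 for Cpr66D, -0.41 to 0.50 for Edg78E, -7.53 to 0.49 for Lcp1, -8.46 to 0.14 for Lcp4, -6.00 to 0.59 for Lcp9 and -0.16 to 0.41 for TwdlE. For wts day 9 against wts day 5 they were -0.44 to 0.12 for Cpr60D, -0.20 to 0.51 for Cpr64Aa, -0.013 to 0.38 for Cpr67Fa2, -6.35 to 1.67 for Lcp1, -0.76 to 0.38 for Lcp3, -7.71 to 0.65 for Lcp4 and -4.65 to 1.66 for Lcp9.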
